A study of Homo sapiens with 6 samples.

Results

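The ABC, SLCO, SLC22 and SLC47 transporters are the membrane proteins that carry drugs, bile acids, sterols, conjugated metabolites, carnitine and organic ions across cell membranes. Members were taken by gene symbol alone, as every symbol of the ABCA, ABCB, ABCC, ABCD, ABCG, SLCO, SLC22 and SLC47 series in the count files. No measured value entered this rule, but the members were chosen with earlier results of these data known. The rule gave 78 of 59050 symbols, 42 of them ABC genes and 36 solute carriers. RNA-seq counts came from H2122 cells, an established line of human lung cancer, in 6 libraries: 3 labelled SMARCA4 knockout and 3 labelled parental, with wild-type SMARCA4. All 6 came from vehicle-treated cells. SMARCA4 is a motor subunit of SWI/SNF, a machine that shifts nucleosomes. The sample titles carry the number 1 in all 3 knockout libraries and 1, 3 and 6 in the parental ones, without saying what it marks, and the labels do not say whether the knockout line is 1 clone or how it was made.

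Most ABC transporters bind and split ATP to move their cargo across a membrane, many of them out of the cell or into an organelle. ABCB1, ABCG2 and several ABCC pumps are known as the multidrug exporters of tumour cells, while many ABCA proteins move lipids. SLCO proteins (organic anion transporting polypeptides) and most SLC22 proteins (organic ion carriers) bring their substrates in, and the SLC47 proteins exchange organic cations for protons and send them out.

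Gene reads per library ranged from 55120937 to 59917980. Levels are CPM, read counts divided by the TMM-scaled library size, and appear as mean ± SD (n = 3 in every group). Changes are log2 fold changes, positive where the knockout was higher, each with its standard error (SE). The test was edgeR's quasi-likelihood test over 17809 genes, and a gene passed when its Benjamini-Hochberg adjusted p was below 0.05. No label states that replicates were separate cultures, and the p-values describe the spread between these libraries, which may be technical. SMARCA4 RNA was 260.3 ± 65.2 CPM in parental and 21.6 ± 2.93 CPM in knockout libraries (-3.59, adjusted p = 0.000176). Parental replicate 3 was separated from the rest on principal component 2, with 19.0% of the variance, and transporter results below are also given without it where that changes the call. The summed level of the epithelial markers fixed for this cell line was 6931 to 7700 CPM in parental and 3157 to 3422 CPM in knockout libraries. Of the 6, 5 fell (6 of 6 without parental replicate 3). The knockout sum was mostly KRT7, KRT8 and KRT18, at means of 1343, 1020 and 809 CPM. CDH1 fell from 341 ± 174 to 5.56 ± 0.105 CPM (-5.94), KRT19 from 1344 ± 114 to 31.8 ± 0.689 CPM (-5.40), and EPCAM changed by -2.32. The surfactant markers were at a summed 2.46 to 3.63 CPM over all libraries. In bulk RNA, fewer cells expressing a gene and less RNA per cell cannot be told apart.

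Of the 78 transporter genes, 49 had enough reads to be tested. The other 29 were too low, 8 of them with no read in any library. Among the 49, 11 rose, 8 fell and 30 did not pass. That is 38.8% called, where 27.6% of all genes tested were called; 22.4% were higher (13.3% of all genes) and 16.3% were lower (14.3% of all genes). At least 2-fold calls made up 30.6% of the tested transporters and 17% of all genes. The median log2 fold change of the 49 was 0.20, against 0.02 over all genes, and the median of its absolute size was 0.63 against 0.41. Knockout and parental values were fully separate in 30 of the 49 (61.2%, against 49.8% of all genes). All 19 called genes were among those 30. Without parental replicate 3, 51 transporters were tested, 19 rose (30.8% of all genes did) and 16 fell (30.8% of all genes did), which is 68.6% called against 61.6% of all genes. All 19 genes called with 6 libraries were called the same way in that fit.

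**Figure D1:**
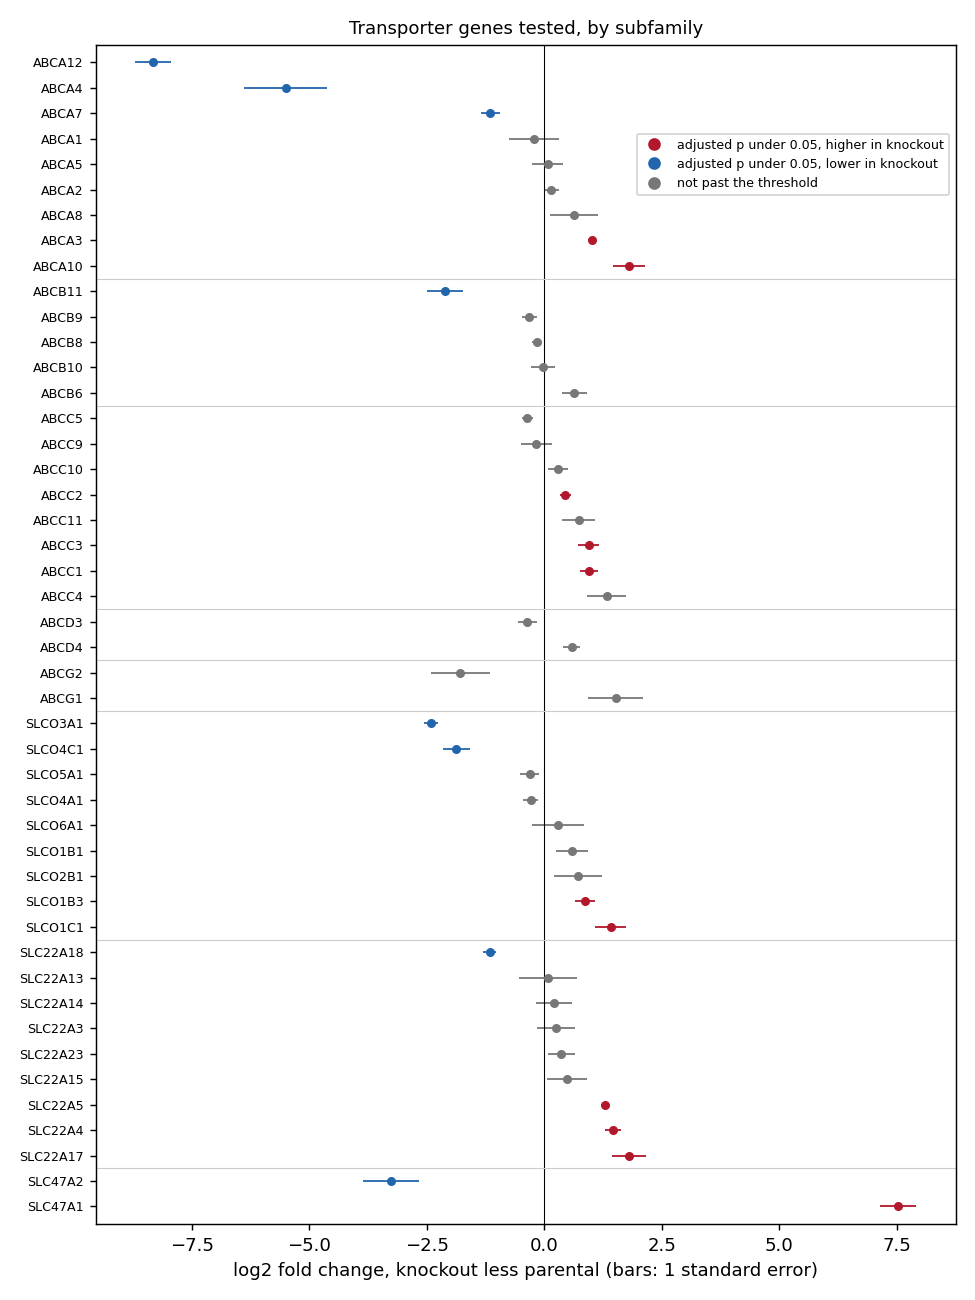
Log2 fold change (knockout less parental, x axis) of 46 of the 49 tested transporter genes, ordered by subfamily, with bars of 1 standard error; red and blue points passed the adjusted p threshold, grey points did not. SLC47A1 (7.53) and ABCA12 (-8.31) lie farthest from 0, and the points of the ABCC subfamily lie mostly to the right.

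The conjugate exporters of the ABCC subfamily held most of the transporter reads. Of its 8 tested members, 3 rose and none fell, where 13.3% of all genes rose and 14.3% fell. Without parental replicate 3, 4 of the 8 rose and 2 fell, where 30.8% of all genes rose and 30.8% fell. ABCC1, ABCC2 and ABCC3 (multidrug resistance proteins 1, 2 and 3) pump glutathione, glucuronide and sulfate conjugates out of the cell. ABCC1 (chromosome 16, 15949577 to 16143074 on GRCh38) was at 545, 514 and 339 CPM in the parental libraries and at 914, 908 and 879 CPM in the knockout. Every knockout library lay above every parental one, and parental replicate 3 was the lowest. The change was 0.95 (SE 0.20, edgeR adjusted p = 0.0148). ABCC3 (chromosome 17, 50634777 to 50692252) went from 404, 416 and 253 CPM to 624, 659.8 and 784 CPM, again with no overlap (0.95, SE 0.22, adjusted p = 0.0232). ABCC2 (chromosome 10, 99782640 to 99852594) was at 842, 819 and 698 CPM in the parental libraries and at 1082, 1064 and 1068 CPM in the knockout (0.45, SE 0.12, adjusted p = 0.0366). The groups of all 3 genes stood apart, but the calls were close to the threshold. The ABCC1 call was lost without any one of the knockout libraries (adjusted p at most 0.0605), as was that of ABCC3, which was also lost with the replicate block (at most 0.0893). The ABCC2 call was lost in 8 of the 12 alternatives, among them RLE factors and every fit without 1 library except that without parental replicate 3 (adjusted p at most 0.135). Without parental replicate 3 the changes of ABCC1, ABCC2 and ABCC3 were 0.72, 0.32 and 0.70, and all passed.

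Summed, these 3 genes went from 1610 ± 277.7 CPM (parental) to 2661 ± 61.03 CPM (knockout). They made up 71.4% ± 0.298 of the summed CPM of all 78 transporters in the knockout and 61.1% ± 4.56 in the parental group, and that sum was 3727 ± 75.8 CPM against 2621 ± 270.1 CPM. Per kilobase of annotated exon, ABCC2 stood highest of the tested members in the knockout at 136.7 ± 1.18 CPM per kb, then ABCC1 at 118.9 ± 2.46 and ABCC3 at 71.7 ± 8.71 CPM per kb. The order was the same in the parental group, at 100.4 ± 9.85, 61.5 ± 14.6 and 37.2 ± 9.47 CPM per kb. In the parental libraries SLCO4A1 came next (21.4 ± 4.32 CPM per kb) and then ABCA12 (12.6 ± 3.72), ABCB10 (10.6 ± 3.81) and ABCD3 (9.24 ± 2.64), and the last 3 lay within their spread of each other. In the knockout ABCA12 had dropped to place 46 of 49.

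**Figure D2:**
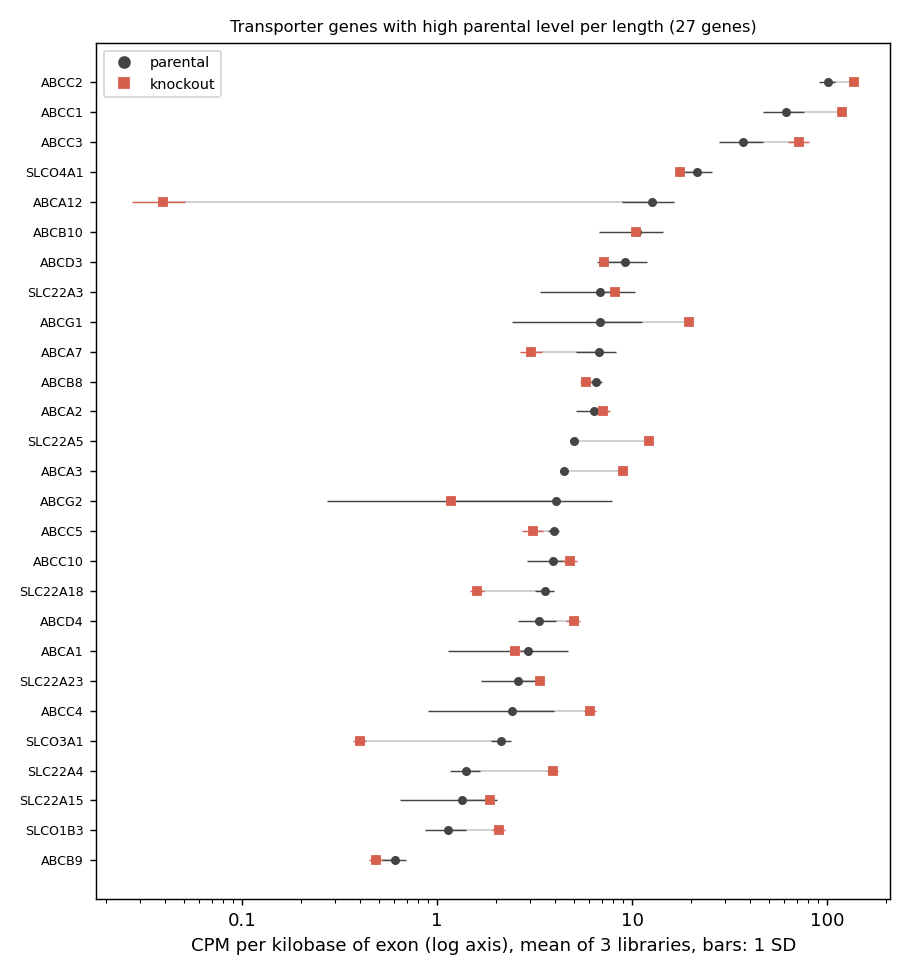
Level per kilobase of annotated exon (CPM per kb, log x axis) of 27 transporter genes with high parental levels; circles are parental and squares knockout means of 3 libraries, with bars of 1 SD. ABCC2, ABCC1 and ABCC3 lead in both groups, and ABCA12 falls from 12.6 to 0.0391 CPM per kb.

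Of the other ABCC genes, ABCC4, which exports cyclic nucleotides and prostaglandins, was at 13.7, 12.9 and 36.3 CPM in the parental libraries and 56.4, 53.1 and 48.7 CPM in the knockout. The groups did not overlap, but parental replicate 3 lay closer to the knockout than the other parental libraries did. The change of 1.33 missed the threshold (SE 0.42, adjusted p = 0.0606); without parental replicate 3 it was 1.94 and passed. ABCC5, another exporter of cyclic nucleotides, stood at 42.4, 45.7 and 48.2 CPM against 32.4, 33.5 and 40.3 CPM, also without overlap (-0.36, adjusted p = 0.0779; without parental replicate 3, -0.36 with adjusted p = 0.0201). ABCC10 went from 31.8 ± 8.43 to 38.7 ± 3.33 CPM with overlapping groups (0.28, adjusted p = 0.377). ABCC9, a regulatory subunit of potassium channels, and ABCC11 were near 1 CPM or below and did not pass (-0.17 and 0.73). Without parental replicate 3, ABCC9 changed by -0.50 and passed (adjusted p = 0.0384).

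SLC47A1 and SLC47A2 gave opposite results. They encode MATE1 and MATE2, the proton-coupled exporters that pass organic cations such as metformin into bile and urine. SLC47A1 (chromosome 17, 19495385 to 19579034) had 1, 3 and 5 reads in the parental libraries and 604, 531 and 581 reads in the knockout, or 0.0519 ± 0.0352 and 9.98 ± 0.605 CPM. The parental levels lay at or near the limit that 3 reads set (0.0497 to 0.0544 CPM per library, which covers counting error only), and every knockout library was far above it. The log2 fold change was 7.53 (SE 0.38, edgeR adjusted p = 9.21e-05), and 7.13 to 8.05 with any 1 library left out. SLC47A2 (chromosome 17, 19678288 to 19718979, minus strand, 99253 bases beyond SLC47A1) had 28, 40 and 13 reads in the parental libraries and 1, 3 and 4 in the knockout. Its change was -3.26 (SE 0.60, adjusted p = 0.00971). The neighbours exchanged order: SLC47A2 was the higher of the pair per kilobase in the parental group (0.0692 against 0.00907 CPM per kb) and SLC47A1 in the knockout (1.75 against 0.00689 CPM per kb).

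**Figure D3:**
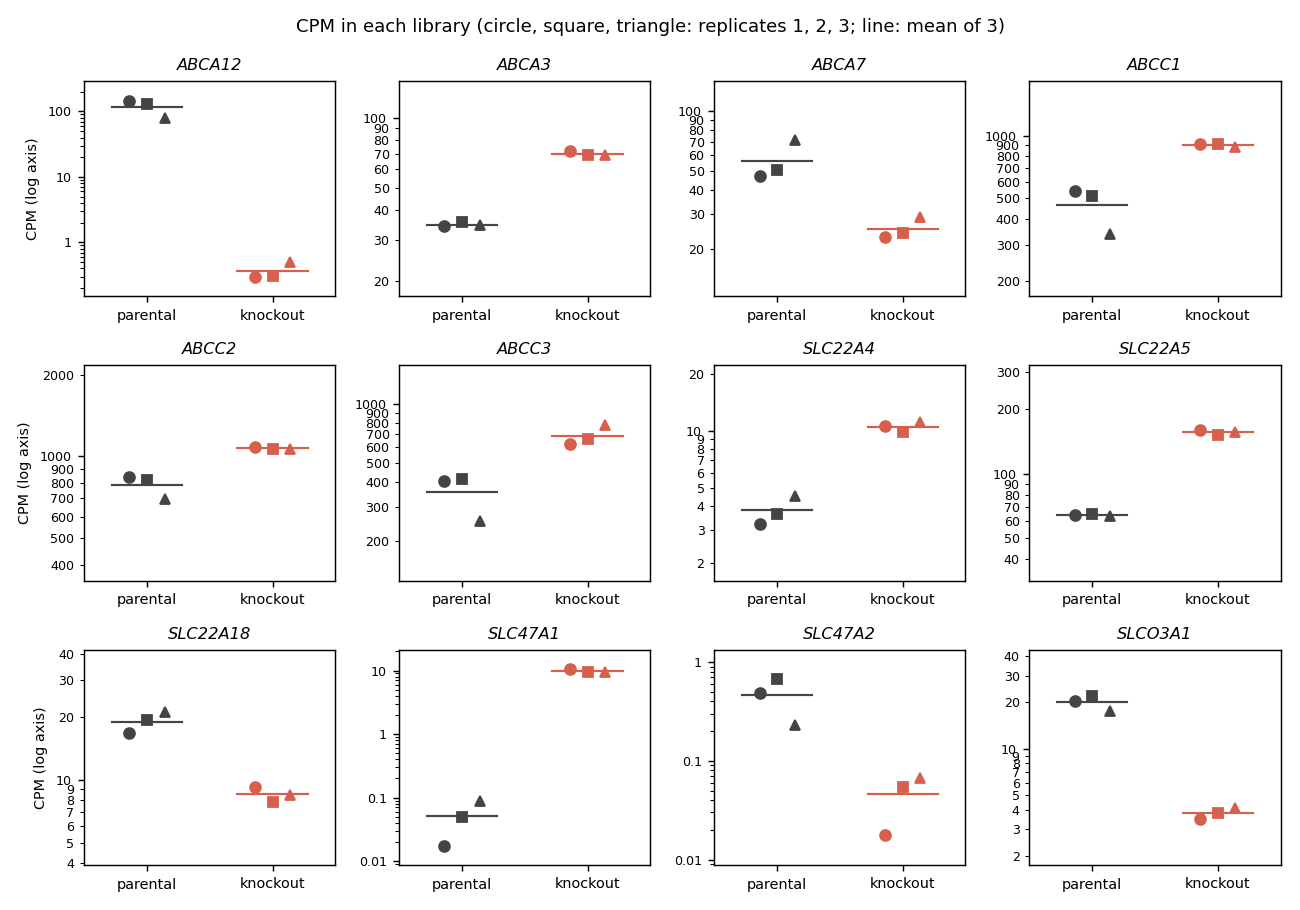
CPM (log y axis) of 12 called transporter genes in each of the 6 libraries; circles, squares and triangles are replicates 1, 2 and 3, grey for parental and red for knockout, and lines are means of 3. No panel shows overlap between groups, and SLC47A1 spans the range from 0.0175 CPM in parental replicate 1 to 10.7 CPM in knockout replicate 1.

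The carnitine and ergothioneine carriers rose together. SLC22A5 (OCTN2, chromosome 5, 132369752 to 132395614) takes up carnitine, which carries fatty acids into mitochondria. It stood at 63.97, 64.6 and 63.5 CPM in the parental libraries and at 161, 152 and 157 CPM in the knockout. Its libraries were tightly grouped, parental replicate 3 included, and the change was 1.29 (SE 0.09, edgeR adjusted p = 0.000202). SLC22A4 (OCTN1, chromosome 5, 132294443 to 132344206), which takes up ergothioneine, lies 25545 bases before it on the same strand. It went from 3.22, 3.63 and 4.52 CPM to 10.6, 9.82 and 11.1 CPM (1.47, SE 0.17, adjusted p = 0.00167). Neither call was lost under any alternative run. MIR3936HG, on the opposite strand, shares 8.74% of the exon bases of SLC22A4 and 0.571% of those of SLC22A5.

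Of the 10 tested SLC22 genes, 3 rose, 1 fell and 6 did not pass (13.3% of all genes rose and 14.3% fell). The third riser was SLC22A17, a receptor for the siderophore-binding protein lipocalin 2, at 0.140, 0.151 and 0.106 CPM against 0.301, 0.490 and 0.613 CPM (1.81, adjusted p = 0.0135). Its counts were low, and the call was lost with knockout replicate 2 or 3 left out and with the replicate block (adjusted p at most 0.0575). SLC22A18, an orphan carrier in the imprinted region of chromosome 11 (2899721 to 2925246), fell from 16.7, 19.4 and 21.0 CPM to 9.28, 7.84 and 8.45 CPM (-1.16, SE 0.14, adjusted p = 0.00194). SLC22A18AS overlaps 4.27% of its exon bases on the other strand. SLC22A3 (OCT3), an uptake carrier for monoamines and other cations, was at 29.8, 29.6 and 9.51 CPM in the parental libraries and 27.3 ± 0.666 CPM in the knockout. The parental libraries lay on both sides of the knockout (0.25, adjusted p = 0.696), and without parental replicate 3 the change was -0.17 and passed. SLC22A23, an orphan member, stood at 28.3, 27.8 and 13.6 CPM against 29.8 ± 0.993 CPM, with parental replicate 3 again the lowest (0.36, adjusted p = 0.392; 0.04 without it). SLC22A15 went from 7.08 ± 3.66 to 9.88 ± 0.515 CPM (0.48, adjusted p = 0.456). The kidney and liver carriers SLC22A6, SLC22A7 and SLC22A8 had no read in any library, so each could have been missed below 3 reads.

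Promoter windows of 300 bases, mostly upstream of the annotated start, are shown for some of the called genes. These are ABCA12, which fell most, SLC47A2, and the adjacent pair SLC22A4 and SLC22A5. They come from RefSeq (GRCh38.p14), written 5′ to 3′ on the gene's strand, and capitals mark CG dinucleotides, the sites of DNA methylation. The windows lie at chr2:215138577-215138876 (minus strand), chr17:19718930-19719229 (minus), chr5:132294144-132294443 (plus) and chr5:132369460-132369759 (plus).
ABCA12: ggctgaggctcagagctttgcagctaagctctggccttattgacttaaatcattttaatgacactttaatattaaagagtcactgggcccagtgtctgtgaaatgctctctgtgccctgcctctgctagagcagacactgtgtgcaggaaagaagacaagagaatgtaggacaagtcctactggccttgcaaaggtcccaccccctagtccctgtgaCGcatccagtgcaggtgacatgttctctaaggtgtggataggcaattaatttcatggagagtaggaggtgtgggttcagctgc
SLC47A2: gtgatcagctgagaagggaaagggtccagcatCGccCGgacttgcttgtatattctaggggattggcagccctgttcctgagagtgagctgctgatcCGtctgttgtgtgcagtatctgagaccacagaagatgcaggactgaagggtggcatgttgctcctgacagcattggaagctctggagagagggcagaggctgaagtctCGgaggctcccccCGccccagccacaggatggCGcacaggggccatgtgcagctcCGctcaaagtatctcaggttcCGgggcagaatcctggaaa
SLC22A4: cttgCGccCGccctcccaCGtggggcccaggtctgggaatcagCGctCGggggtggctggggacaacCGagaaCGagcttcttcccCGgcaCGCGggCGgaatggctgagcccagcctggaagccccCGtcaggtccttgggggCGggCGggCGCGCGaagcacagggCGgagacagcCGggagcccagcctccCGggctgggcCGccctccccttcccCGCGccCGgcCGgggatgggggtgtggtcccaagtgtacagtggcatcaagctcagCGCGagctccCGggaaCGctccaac
SLC22A5: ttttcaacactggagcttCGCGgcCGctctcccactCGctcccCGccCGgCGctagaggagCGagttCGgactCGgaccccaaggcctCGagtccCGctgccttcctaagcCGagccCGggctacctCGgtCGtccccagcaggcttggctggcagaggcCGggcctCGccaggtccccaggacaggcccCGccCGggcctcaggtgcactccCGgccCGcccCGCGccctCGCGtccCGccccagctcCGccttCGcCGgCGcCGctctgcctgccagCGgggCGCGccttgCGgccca
ABCA12 has 1 CG in its window and SLC47A2 has 8, where the median of 35116 windows was 14. SLC22A4 has 29 and SLC22A5 has 36. Other called genes changed more than this pair. Of these, SLC47A1 (7.53) and ABCA4 (-5.50) had no window, and the windows of the rest are not shown. In that rest, SLCO3A1 (38 CG), SLCO4C1 (20) and ABCB11 (3) fell, and SLC22A17 (12) and ABCA10 (3) rose. Over the 52 transporters with a window, the median was 12 CG for 7 of the 11 that rose and 14 for 6 of the 8 that fell. It was 21.5 for the 20 tested without a call and 5 for the 19 not tested. The range was wide in each set, 0 to 42 among risers and 1 to 38 among fallers.

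Motifs were searched in the same windows on both strands, as letters only. CACCTG, the E-box form bound by ZEB and SNAI repressors, was in 2 of 7 risers (ABCA3 and SLC22A5) and 2 of 6 fallers (ABCA12 and SLCO4C1), against 20.6% of all windows. TGACNNNGC, the core of the antioxidant response element, was in 1 riser (ABCA3) and 1 faller (SLCO4C1), against 13.3% of all windows. TGANTCA, the AP-1 site, was in 1 faller (ABCB11) and no riser, against 7.71%. GGAATG, the TEAD site, was in 2 risers (SLC22A4 and SLCO1B3) and no faller, against 14%. TATAAA, the TATA box, was in 2 risers (ABCA10 and ABCC2) and no faller, against 11.5%. Of the 20 tested without a call, 6 had CACCTG, 5 the antioxidant core, 1 the AP-1 site, 5 GGAATG and 3 TATAAA. The spaced direct repeat bound by LXR, known as DR4, was in none of the 52 windows and in 0.0199% of all windows. These are matches of letters in short windows and no measure of binding.

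Among the lipid transporters of the ABCA subfamily, 2 of 9 tested members rose, 3 fell and 4 did not pass. Of all genes, 13.3% rose and 14.3% fell. ABCA12 (chromosome 2, 214931542 to 215138428) loads glucosylceramides into lamellar granules of keratinocytes and is the gene of harlequin ichthyosis. It stood at 146, 131 and 79.02 CPM in the parental libraries and 0.301, 0.309 and 0.497 CPM in the knockout, or 20637 reads in all against 64. The lowest parental library was far above the highest knockout library. The change was -8.31 (SE 0.38, edgeR adjusted p = 6.68e-05), and -8.59 to -8.14 with any 1 library left out. ABCA3 (chromosome 16, 2275881 to 2340746), which loads phospholipid into the surfactant bodies of alveolar type II cells, moved the other way. It went from 34.2, 35.6 and 34.5 CPM to 71.9, 69.5 and 69.2 CPM, with all 3 libraries of each group close together (1.01, SE 0.09, adjusted p = 0.000461). Of the 8 surfactant and type II markers, 4 were tested, none rose and SFTPA2 fell, from 112 reads in the parental libraries to none in the knockout (at least 37.0-fold lower against 3 counts over the group). SFTPC, the marker most particular to type II cells, averaged 0.0177 CPM (knockout) and 0.0167 CPM (parental), below the limit that 3 reads set.

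ABCA7, a phospholipid transporter associated with Alzheimer disease, fell from 46.9, 50.7 and 71.2 CPM to 23.1, 24.05 and 29.2 CPM (-1.15, SE 0.19, adjusted p = 0.00725). ABCA10, of the ABCA cluster on chromosome 17, rose from 1.24, 0.938 and 0.492 CPM to 3.18, 3.34 and 2.82 CPM (1.80, SE 0.34, adjusted p = 0.0108). ABCA5, which adjoins it and shares 2.42% of its own exon bases with it, did not pass (4.69 ± 1.96 and 4.93 ± 0.487 CPM, 0.07), nor without parental replicate 3, where its sign turned (-0.28, adjusted p = 0.0658). ABCA4, the retinal transporter mutated in Stargardt disease, had 16, 13 and 33 reads in the parental libraries and 1, 0 and 0 in the knockout. The parental CPM was 61.4 times the knockout CPM (95% counting interval 10.6 to 2464, adjusted p = 0.00583), and the fitted -5.50 became -7.38 without knockout replicate 1, which held the read. ABCA13, chosen after its values were seen, had 104, 64 and 7 reads in the parental libraries and 3, 3 and 0 in the knockout, and was too low to be tested with all 6 libraries. Without parental replicate 3 it was tested and called lower (-5.33, adjusted p = 2.84e-06), as it was with no low-count filter (-4.84, adjusted p = 0.0339). ABCA2, a lipid transporter of endosomes and lysosomes, stood at 73.3 ± 13.6 and 81.4 ± 7.18 CPM (0.15, adjusted p = 0.519).

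ABCA1 and ABCG1, the exporters of cholesterol to apolipoprotein A-I and to HDL, differed from each other and between parental libraries. ABCG1 (chromosome 21, 42199689 to 42297244) stood at 58.3, 55.8 and 10.7 CPM in the parental libraries and at 118.4, 122 and 117 CPM in the knockout. Every knockout library was above every parental one, but the spread of the parental group was large (1.52, SE 0.58, adjusted p = 0.107). ABCA1 (chromosome 9, 104781002 to 104928237) stood at 45.9, 43.4 and 9.85 CPM against 29.2, 30.1 and 26.2 CPM, with parental replicate 3 below and the other parental libraries above the knockout (-0.21, SE 0.53, adjusted p = 0.801). Without parental replicate 3, ABCG1 changed by 1.01 and ABCA1 by -0.70, and each passed. Of the 13 genes of the LXR and sterol efflux list, all tested, 1 rose, 3 fell and 9 did not pass, with a median of -0.31; without parental replicate 3, 6 rose and 5 fell. LPCAT3, a phospholipid remodelling enzyme, changed by -0.94 (adjusted p = 0.00993), NPC1, which exports cholesterol from lysosomes, by 0.44 (0.015), and MYLIP, a ubiquitin ligase for the LDL receptor, by -0.68 (0.0202). These 3 calls were lost without any one of the knockout libraries. LPCAT3 shares 65.6% of its exon bases with EMG1 on the opposite strand, and the strand setting is not known, so its counts are uncertain. The LXR genes NR1H2 and NR1H3 did not pass (0.13 and -0.37), and without parental replicate 3 NR1H3 was at 0.40 and passed (adjusted p = 0.0458).

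**Figure D4:**
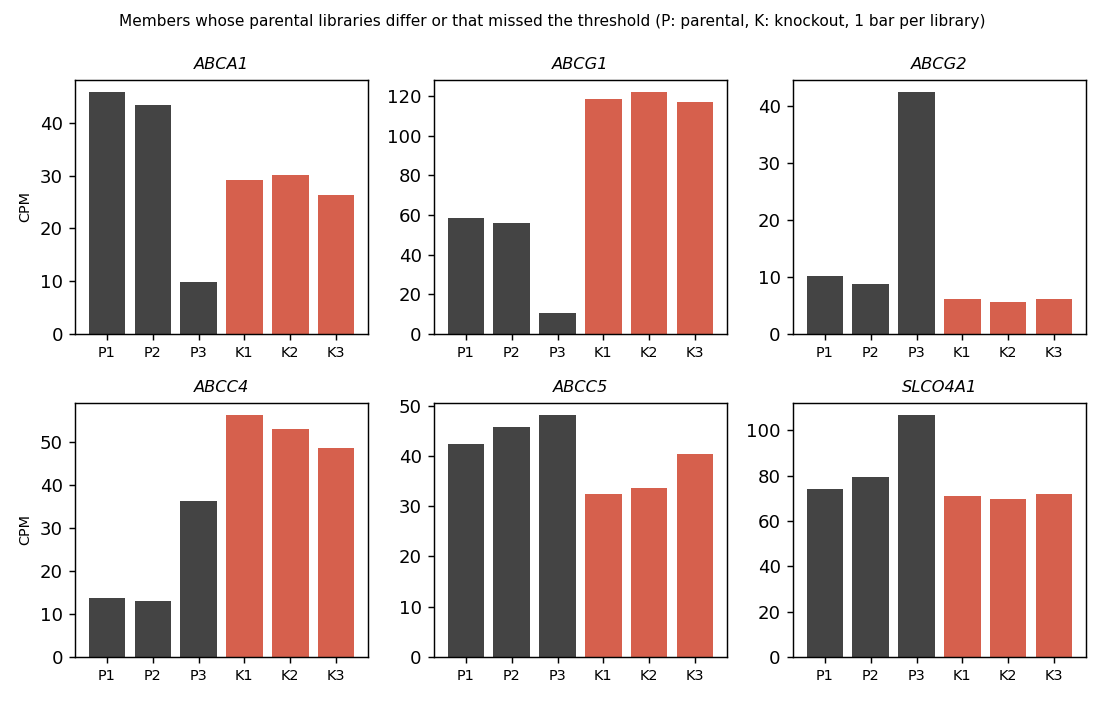
CPM (y axis, from 0) of 6 transporter genes that missed the threshold with all libraries, 1 bar per library, P for parental and K for knockout with the replicate number. Parental replicate 3 is the lowest parental library for ABCA1 (9.85) and ABCG1 (10.7) and the highest for ABCG2 (42.5), ABCC4 (36.3), ABCC5 (48.2) and SLCO4A1 (107).

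The multidrug pump ABCG2 (BCRP, chromosome 4, 88090264 to 88231322) showed the same dependence in the other direction. Its parental levels were 10.1, 8.77 and 42.5 CPM and its knockout levels 6.03, 5.64 and 6.16 CPM. All knockout libraries were lower, and parental replicate 3 was far above the other parental libraries (-1.78, SE 0.63, adjusted p = 0.0869). Without it the change was -0.71 and passed. DESeq2 called ABCG2, ABCG1, ABCC4 and ABCC5 with all 6 libraries, in the directions given here. It called 23 transporters in all, 46.9% of the 49 tested, against 33.6% of all genes. ABCB1, which encodes P-glycoprotein, gave 0, 0 and 1 reads in parental and 1, 0 and 1 in knockout libraries. It was therefore at or below the limit of detection in both groups, and no difference was detectable at this depth.

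Of the 6 tested ABCB genes, 1 fell and 5 did not pass (13.3% of all genes rose and 14.3% fell). ABCB11, the bile salt export pump of hepatocytes, fell from 2.43, 1.76 and 4.50 CPM to 0.619, 0.690 and 0.696 CPM (-2.11, SE 0.38, edgeR adjusted p = 0.00919), a call lost only without knockout replicate 1 (0.0505). The hepatocyte markers ALB and TTR were at or near 0 in both groups. SERPINA1, of the same marker list, fell from 65.4, 56.4 and 27.2 CPM to 1.72 ± 0.0613 CPM (-4.85, adjusted p = 0.000349). The summed level of the 6 hepatocyte markers was 27.6 to 65.5 CPM in the parental and 1.82 to 2.18 CPM in the knockout libraries, and its part in the ABCB11 result was not tested. Of the mitochondrial transporters that did not pass, ABCB8 was at 60.8 ± 4.27 and 54.2 ± 4.08 CPM (-0.16, adjusted p = 0.306), and ABCB10, which supports haem synthesis, at 45.1 ± 16.2 and 44.3 ± 2.003 CPM (-0.03, adjusted p = 0.953). For ABCB10 the knockout values lay between parental replicate 3, the highest library, and the lower parental libraries, and it changed by 0.26 and passed without that replicate. ABCB6 shares 54.7% of its exon bases with a second annotated gene on the same strand, so its counts are uncertain.

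None of the 3 tested ABCD genes passed, where 27.6% of all genes did. ABCD3, which brings branched chain fatty acids into peroxisomes, was at 70.1 ± 20.01 CPM in parental and 54.7 ± 1.95 CPM in knockout libraries (-0.36, adjusted p = 0.245). ABCD4, which exports cobalamin from lysosomes, stood at 30.3, 34.9 and 22.3 CPM against 41.3, 42.2 and 48.2 CPM, without overlap (0.59, SE 0.18, adjusted p = 0.0573). Without parental replicate 3, ABCD3 (-0.15) and ABCD4 (0.38) passed. Of the 17 genes of peroxisomal beta-oxidation and carnitine shuttling, 1 rose, 2 fell and 14 did not pass (median -0.15); without parental replicate 3, 5 rose and 7 fell. ACOX2, the branched chain acyl-CoA oxidase, rose from 0.557 ± 0.433 to 9.39 ± 1.12 CPM (4.07, adjusted p = 0.00269). CPT2, the inner carnitine palmitoyltransferase, changed by -0.59 (0.0168), a call lost without any one of the knockout libraries and with the block, while the carnitine carrier of mitochondria, SLC25A20, named after its values were seen, was at 14.04 ± 3.89 and 21.9 ± 0.918 CPM and did not pass (0.64, adjusted p = 0.0803; without parental replicate 3, 0.38, which passed).

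Of 9 tested SLCO genes, 2 rose, 2 fell and 5 did not pass (13.3% of all genes rose and 14.3% fell). SLCO3A1 (chromosome 15, 91853695 to 92172435), a widely expressed uptake carrier of prostaglandins and thyroxine, fell from 20.6, 22.2 and 17.5 CPM to 3.48, 3.79 and 4.07 CPM. The groups were well separated (-2.41, SE 0.15, edgeR adjusted p = 0.000154). SLCO4C1, known from the kidney for uptake of digoxin and thyroid hormone, fell from 2.29, 2.16 and 3.85 CPM to 0.813, 0.690 and 0.762 CPM (-1.87, SE 0.28, adjusted p = 0.00476). SLCO1B3, a liver uptake carrier of bile acids and drugs that is also expressed in tumours, rose from 4.64, 4.49 and 2.94 CPM to 6.89, 7.99 and 7.07 CPM (0.86, SE 0.21, adjusted p = 0.0279). It shares 54.5% of its exon bases with another annotated gene on the same strand, so its counts are uncertain. SLCO1C1, the thyroxine carrier of the blood-brain barrier, lies 57315 bases before it and rose from 0.263, 0.335 and 0.598 CPM to 1.15, 0.962 and 1.08 CPM (1.41, SE 0.33, adjusted p = 0.0239). Neither call was firm: that of SLCO1B3 was lost in 6 alternatives, without any one of the knockout libraries or parental replicate 2, with the replicate block and with no low-count filter (adjusted p at most 0.109). That of SLCO1C1 was lost without any 1 library other than parental replicate 3 and with the block (at most 0.0903). SLCO4A1, the most abundant SLCO gene per kilobase, was at 74.3, 79.5 and 107 CPM against 71.1, 69.8 and 72.1 CPM (-0.29, adjusted p = 0.219), and -0.16 and past the threshold without parental replicate 3. The prostaglandin carrier SLCO2A1 had 0 to 2 reads per library, at or below the limit of detection.

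In parental replicate 3, 13 of the 49 tested transporters were over 1.5 times above both other parental libraries and 16 over 1.5 times below them, which is 26.5% and 32.7%, against 20.0% and 20.3% of all genes tested. In the fit without it, 15 of the 30 tested transporters that had not passed did so, 8 higher and 7 lower. Of the 12897 genes of any kind in the same position, 47.6% did so. Among them were ABCA2 (0.27), ABCC4 (1.94), SLCO2B1 (1.34), ABCG1 (1.01), SLCO1B1 (0.93), ABCG2 (-0.71) and ABCA1 (-0.70). By subfamily, 3 rose and 5 fell of 10 ABCA genes in that fit, 4 and 2 of 8 ABCC, 4 and 3 of 9 SLCO, and 3 and 2 of 10 SLC22. Over all genes in that fit, 30.8% rose and 30.8% fell.

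**Figure D5:**
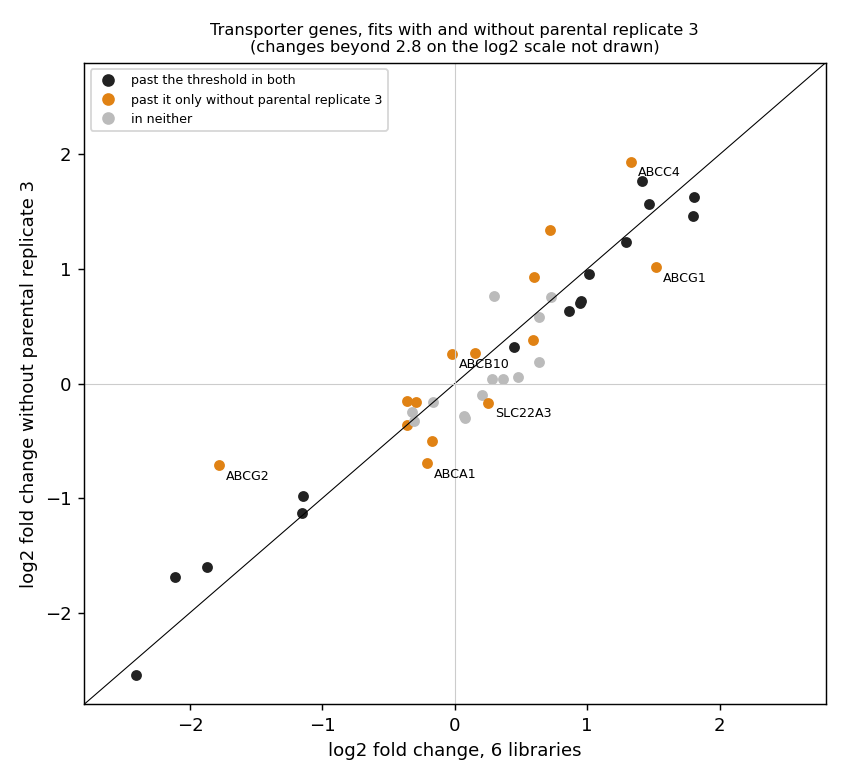
Log2 fold change of transporter genes with all 6 libraries (x axis) and without parental replicate 3 (y axis), with the line of equality; black points passed in both fits, orange points without that library alone, grey points in neither. Values beyond 2.8 are not drawn. ABCG2 moves from -1.78 to -0.71 and ABCC4 from 1.33 to 1.94.

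The genes around these transporters were read from lists chosen by function. Over all genes, 13.3% rose and 14.3% fell with 6 libraries, and 30.8% rose and 30.8% fell without parental replicate 3. The counts of these lists, and of the LXR and peroxisomal lists above, stand beside those shares. Of the 7 ABC genes outside the symbol rule, 6 were tested, TAP2, a subunit of the peptide transporter of antigen presentation, fell (-1.17, adjusted p = 0.0076) and 5 did not pass; without parental replicate 3, 3 rose and 1 fell. CFTR, the chloride channel of the ABCC subfamily, had no read in any library. Of 22 carriers of similar substrates, 14 were tested, 2 rose and 4 fell (median -0.38); without parental replicate 3, 4 rose and 7 fell of 15. SLC46A3, a lysosomal carrier, rose from 8.38 ± 0.936 to 39.4 ± 0.603 CPM (2.23, adjusted p = 0.000106), the peptide carrier SLC15A1 fell from 3.62 ± 0.434 to 0.391 ± 0.0559 CPM (-3.20, adjusted p = 0.000198), while nucleoside carrier SLC29A3 changed by -0.72 (0.0168). Of the 7 scaffold and anchor genes, 5 were tested, 1 rose and 2 fell (median 0.40; 3 rose and 2 fell without parental replicate 3), with SLC9A3R2 at -1.02 (adjusted p = 0.000482) and SLC9A3R1 at -1.59 (0.0227), which encode NHERF scaffolds that hold transporters at the apical membrane, and MSN (moesin) at 0.61 (0.0262). The calls of SLC29A3, SLC9A3R1 and MSN were lost without any one of the knockout libraries and with the block.

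Of 19 regulators of transporter genes, 14 were tested, 2 rose, 4 fell and 8 did not pass; without parental replicate 3, 4 rose and 5 fell. VDR, the vitamin D receptor, dropped from 57.4 ± 2.82 CPM to 13.5 ± 0.417 CPM (-2.09, adjusted p = 6.68e-05), ESR1 from 2.53 ± 0.421 to 0.0234 ± 0.0104 CPM (-6.64, adjusted p = 8.32e-05), and ARNT, the partner of the dioxin receptor, rose (0.87, adjusted p = 0.00598). AHR, the dioxin receptor gene itself, fell from 67.9 ± 14.3 to 33.4 ± 1.86 CPM (-1.03, adjusted p = 0.00653). The xenobiotic receptor gene NR1I2 had 1 read in all 6 libraries. The RNA of NFE2L2, which encodes NRF2, and of KEAP1, its inhibitor, did not pass (0.16 and -0.11), and protein was not measured. These 3, AHR and the LXR genes were named after their values were seen. Several ABCC pumps are known NRF2 targets, and a part of NRF2 in the ABCC changes was not tested. Of 23 genes of conjugation and glutathione, 20 were tested, 4 rose, 6 fell and 10 did not pass (median -0.12). Without parental replicate 3, 9 rose and 8 fell. The 4 that rose, named after their values were seen, were GSTA4 (1.56), GSTM2 (1.19), NQO1 (0.60) and MGST3 (0.40). NQO1 went from 1208 ± 132 to 1825 ± 53.6 CPM (edgeR adjusted p = 0.0166). Of the 6 that fell, those with the smallest adjusted p follow. The glucuronidation gene UGT1A6 had 1 read in the knockout against 4367 in the parental libraries, 4326 times in CPM (95% counting interval 776 to 170900), and UGT1A1 had 2 against 710 (352 times, interval 97.0 to 2909). They are spliced from 1 locus with shared last exons, so their counts are uncertain. SULT2B1, a sterol sulfotransferase, fell from 32.6 ± 14.1 to 0.295 ± 0.0875 CPM (-6.77, adjusted p = 0.000201). Blood and endothelial markers were low in all libraries (summed level at most 1.51 and 1.40 CPM), with PTPRC at 0. Of the fibroblast markers, LUM rose by 6.18 and COL3A1 by 5.00 and COL1A1 fell (-1.46, a call lost without any one of the knockout libraries and with the block), with a summed 39.3 to 110.1 CPM in parental and 53.4 to 58.1 CPM in knockout libraries; their part in the transporter results was not tested.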

How the data were processed

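Gene-level read counts of 6 RNA-seq libraries were used, 3 per group by sample title. The authors deposited raw counts per gene symbol, 1 file per library; per the submitters' processing notes, TopHat2 2.1.1, HTSeq 0.11.0 and hg38 were used, but the sources used here name no annotation release, strand setting or filter. The 5 classes of unassigned reads (13.8% to 15.3% of each file) were left out. In R 4.3.3, edgeR 4.0.16 filtered the counts (filterByExpr), computed TMM factors and ran its robust quasi-likelihood test (two-sided), group being the only term, with Benjamini-Hochberg adjustment over all genes tested; the fit was tested on simulated data. Standard errors come from the F value. The limit of 3 reads corresponds to 0.0497 to 0.0544 CPM, and counting limits cover counting error only. Positions, exon lengths and exon sharing are from GENCODE 29 on GRCh38, matched by symbol for all 78 members. Of these, 52 had a RefSeq promoter window. Alternatives were RLE and upper-quartile factors, 2 other filters, DESeq2 1.42.0, a replicate block and each library left out in turn. The members and lists were chosen with earlier results of these data known. Some genes are counted but not reported here one by one. Otherwise named were all called members, a set of 17 drug and lipid transporters, members at a mean of at least 10 CPM, and up to 3 called genes per list with the smallest adjusted p.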

Additional observations from a re-analysis of the deposited data

How the results depend on the processing

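Across all genes, the count of 4912 changed genes became 3040 with the replicate block and ranged from 2692 to 11325 with 1 library left out; the largest count was that without parental replicate 3. The transporter count of 19 was between 14 and 23 under RLE or upper-quartile factors, either other filter, DESeq2 and the block, and ranged from 13 to 35 with 1 library left out. Under the block 14 transporters were called, 28.6% of the 49 tested, against 17.1% of all genes. Same-numbered libraries did not deviate together (correlations of -0.0487, -4.24e-05 and -0.0743), and no library correlated best with its own number. With 3 libraries per group, and parental replicate 3 far from the other parental libraries, this could not exclude a pairing. Among the named transporters with a call, 12 of 19 kept it under every alternative in which they were tested; the calls of ABCB11, ABCC1, ABCC2, ABCC3, SLC22A17, SLCO1B3 and SLCO1C1 were each lost in at least 1. Leaving out a library leaves fewer samples. Among the named genes tested, signs turned for 7, none with a call on all 6 libraries. ABCA1 was 0.050 with the block, ABCB10 was 0.033 with the block and 0.031 with upper-quartile factors, and ABCA5 was -0.0025 with no low-count filter. With 1 library left out, the range was -0.70 to 0.095 for ABCA1, -0.19 to 0.26 for ABCB10, -0.17 to 0.48 for SLC22A3, -0.28 to 0.35 for ABCA5, -0.50 to 0.013 for ABCC9, -0.20 to 0.010 for KEAP1 and -0.66 to 0.40 for NR1H3. The cause was not tested. Depth limits the 29 transporters not tested, whose group means were at most 1.01 CPM.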
